A study of Arabidopsis thaliana with 4 samples.

Results

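The stress MAP kinase cascade was followed through 10 genes chosen by locus: the MAP kinases MPK3 (AT3G45640), MPK4 (AT4G01370), MPK6 (AT2G43790) and MPK11 (AT1G01560), the MAP kinase kinases MKK1 (AT4G26070), MKK2 (AT4G29810), MKK4 (AT1G51660), MKK5 (AT3G21220) and MKK9 (AT1G73500), and the MAP kinase kinase kinase MEKK1 (AT4G08500). All 10 were found among the 33602 genes of the deposited table, and all 10 reached the mean of 1 RPKM (reads per kilobase of gene length, scaled by library size) that was required for testing. The samples were whole Arabidopsis thaliana seedlings of the ecotype Columbia (Col), 14 days old and raised on 1/2 MS medium without nitrogen. The 0 h group, treatment label 1/2 MS (-N), had 2 libraries, and the 0.5 h group, moved to that medium with 2.5 mM Gln (glutamine) added, had 2 libraries. The study asks which genes respond early to glutamine. The groups differ in glutamine, transfer and time together, and a transferred group without glutamine was not analysed here.

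In a MAP kinase cascade, a MAP kinase kinase kinase phosphorylates a MAP kinase kinase, which in turn phosphorylates a MAP kinase. In Arabidopsis, MEKK1, the redundant pair MKK1 and MKK2, and MPK4 form one branch, and MKK4 and MKK5 activate MPK3 and MPK6 in another. Both branches are known for rapid activation by microbial patterns, wounding and cold, and this activation is by phosphorylation, which transcript levels do not measure.

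The activation loop of each of the MAP kinases carries the threonine-glutamate-tyrosine motif that MAP kinase kinases phosphorylate. The coding windows around it are shown because they let the related genes be compared base by base around the site of phosphorylation. They were read from the RefSeq TAIR10.1 genome and run 5′ to 3′, with the 3 motif codons in capitals.
MPK3: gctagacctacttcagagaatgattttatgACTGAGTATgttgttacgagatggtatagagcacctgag
MPK6: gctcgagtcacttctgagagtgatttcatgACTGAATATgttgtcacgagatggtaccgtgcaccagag
MPK4: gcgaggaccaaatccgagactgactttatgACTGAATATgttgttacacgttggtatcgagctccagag
MPK11: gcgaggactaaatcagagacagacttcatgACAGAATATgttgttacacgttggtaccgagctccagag
The motif occurred 1 time in frame in each gene, at codons 196 to 198 of MPK3, 221 to 223 of MPK6, 201 to 203 of MPK4 and 198 to 200 of MPK11. Over the aligned coding sequence, MPK4 and MPK11 were identical at 85.3% of 1110 bases and MPK3 and MPK6 at 70.1% of 1110. MKK4 and MKK5 were identical at 82.0% of 1047 aligned bases and MKK1 and MKK2 at 68.3% of 1065.

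Libraries held 26069135 and 27203588 reads in genes at 0 h and 26075046 and 20429739 at 0.5 h, and the 10 genes had from 54 reads (MPK11, 0 h replicate 2) to 7853 reads (MPK3, 0.5 h replicate 1). The 0.5 h replicate 2 library had the highest share of chloroplast reads, at 0.379% against 0.0569 to 0.0974% in the others. Its share of nuclear ribosomal RNA was also the highest, at 0.851% against 0.270 to 0.355%. The part of these shares in the results was not tested. Where leaving out a library ended or made a call named here, adjusted p-values without it, or their range over the 4 libraries, are given where the gene is described. Whole-seedling RNA held both shoot and root markers: LHCB6 had 945.5 ± 4.38 and 356 ± 21.2 RPKM at 0 and 0.5 h (mean ± SD, n = 2), and the root-expressed SCR had 9.04 ± 1.38 and 12.2 ± 0.552. The light-harvesting genes LHCB6 and LHCA3 were called lower at 0.5 h, while RBCS1A (7822 and 7848 RPKM), PYK10 (215 and 166), RHD6 (1.19 and 1.08) and SCR were not called. The part of these markers in the results was not tested. In such bulk RNA, fewer cells of a type and less RNA per cell cannot be told apart. The labels do not say that replicates came from separate cultures, so p-values measure the spread between these libraries, which may be technical.

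Of the 10 cascade genes 4 rose at 0.5 h by limma with a Benjamini-Hochberg adjusted p below 0.05, and 0 fell. The 4 were the MAP kinase kinase kinase MEKK1, the MAP kinase kinases MKK4 and MKK9, and the MAP kinase MPK11. MKK1 and MKK2, which MEKK1 acts on, and MPK3 and MPK6, which MKK4 activates, were not called. The calls of MEKK1 and MKK9 depended on single libraries, as given with each gene below. Over all 18039 genes tested, 6.71% were called higher and 5.11% lower. The 10 genes were chosen with earlier results of these data known, so comparisons with all genes here are no test of the set. For 9 of the 10 genes the 0 h and 0.5 h values were apart, 8 of them higher at 0.5 h, where 27.1% of all tested genes lay, and 1 lower (MPK6), where 32.6% lay. At an unadjusted p below 0.05 there were 9 genes, against 28.7% of all tested genes. With no minimum on the mean RPKM, limma called 0 of the 10 genes (adjusted p = 0.11 for MEKK1, 0.12 for MKK4 and MPK11 and 0.20 for MKK9), and 0 of all genes were called higher. The median log2 fold change of the 10 genes was 0.51, against -0.03 over all tested genes. Fold changes on the log2 scale are of RPKM + 1, a scale that shrinks changes of low genes, and carry the limma standard error.

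**Figure D1:**
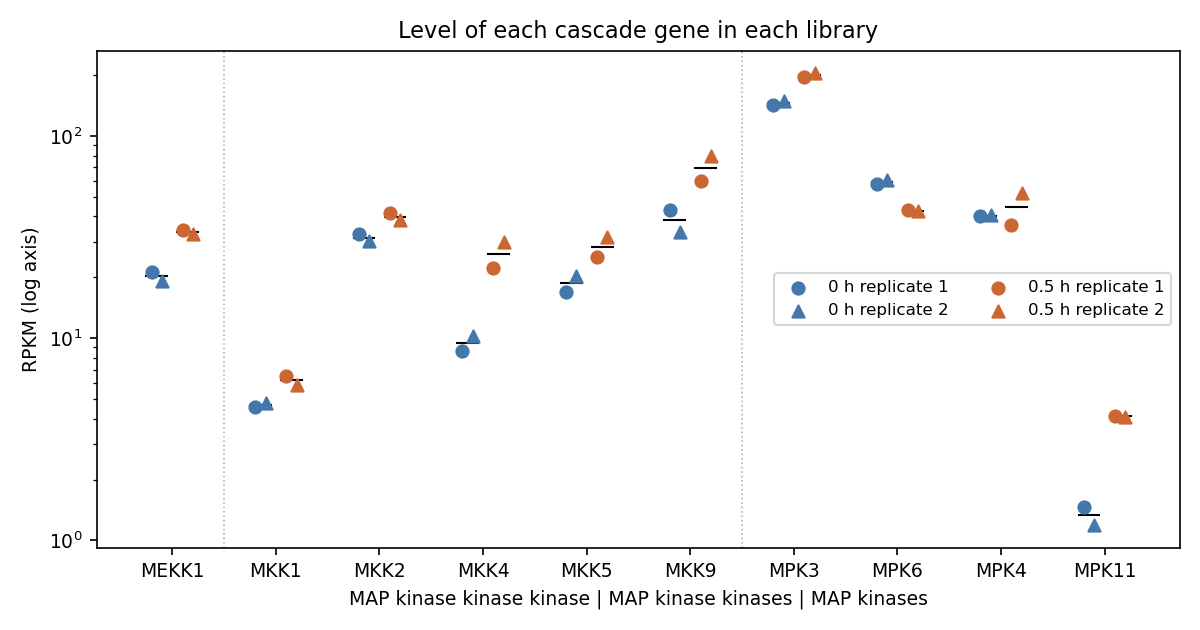
RPKM of the 10 cascade genes on a log axis in each of the 4 libraries (blue, 0 h; orange, 0.5 h; circle, replicate 1; triangle, replicate 2), with a black line at each group mean and genes ordered by tier. MPK3 was the highest at both times and MPK11 the lowest, and the orange points lie above the blue ones for all genes except MPK6, where they lie below, and MPK4, where they overlap.

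MEKK1, the kinase at the head of the MPK4 branch, had 21.4 and 19.2 RPKM in the 0 h libraries and 34.1 and 32.9 RPKM in the 0.5 h libraries. Both 0.5 h values lay above both 0 h values. The mean rose 1.65-fold, from 20.3 ± 1.53 to 33.5 ± 0.871 RPKM (n = 2 each), with a log2 fold change of 0.70 ± 0.13 (limma adjusted p = 0.021). The call ended whichever library was left out: the log2 fold change was 0.77 without 0 h replicate 1 (limma adjusted p = 0.066), 0.63 without 0 h replicate 2 (0.10), 0.67 without 0.5 h replicate 1 (0.050) and 0.72 without 0.5 h replicate 2 (0.068). MEKK1 lies beside its close relatives MEKK2 (AT4G08480) and MEKK3 (AT4G08470), and its highest deposited multi-mapped fraction was 0.0417. The longest identical stretch between MEKK1 and MEKK2 transcripts in TAIR10.1 was 87 bases, shown because reads within it cannot be assigned to 1 gene.
MEKK1 and MEKK2: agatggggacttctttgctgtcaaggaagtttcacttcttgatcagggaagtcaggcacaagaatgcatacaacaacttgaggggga
MEKK2 had 5.51 and 5.43 RPKM at 0 h and 6.24 and 7.70 RPKM at 0.5 h. MEKK3 had 35.7 and 34.3 RPKM at 0 h and 32.5 and 25.1 RPKM at 0.5 h. Neither was called (limma adjusted p = 0.24 and 0.29).

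MKK1 and MKK2, the paired kinases that MEKK1 acts on, differed in level but had changes of like size on the log2 scale of RPKM + 1. MKK1 had 4.55 and 4.78 RPKM at 0 h and 6.48 and 5.88 RPKM at 0.5 h. MKK2 had 32.7 and 30.2 RPKM at 0 h and 41.4 and 38.4 RPKM at 0.5 h. In both genes the groups did not overlap and the later libraries were higher. Their log2 fold changes of 0.34 ± 0.14 and 0.34 ± 0.13 did not pass (limma adjusted p = 0.15 for each). The likeness depends on the value added to RPKM: MKK1 and MKK2 had 0.40 and 0.34 with 0.1 added, and 0.21 and 0.30 with 5. The ratio of MKK1 to MKK2 RPKM within a library was 0.139 and 0.158 at 0 h and 0.157 and 0.153 at 0.5 h, so the groups overlapped in this ratio. MKK1 overlaps ABI1 (AT4G26080), a protein phosphatase 2C gene of abscisic acid signalling on the opposite strand, which had 58.5 ± 10.2 and 42.3 ± 1.04 RPKM. The labels do not say whether reads were counted by strand, so those of the overlap cannot be told apart.

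MPK4, the MAP kinase of this branch and a restraint on immune responses, had 40.1 and 40.8 RPKM at 0 h and 36.4 and 52.4 RPKM at 0.5 h. The 0.5 h libraries fell on either side of the 0 h ones, and the log2 fold change was 0.11 ± 0.19 (limma adjusted p = 0.74). It was -0.15 without 0.5 h replicate 2 and 0.37 without 0.5 h replicate 1. MPK11, the closest relative of MPK4 and likewise activated by microbial patterns, had 1.47 and 1.19 RPKM at 0 h and 4.12 and 4.10 RPKM at 0.5 h. These values rest on 60 and 54 reads at 0 h and on 191 and 144 reads at 0.5 h. The 0.5 h libraries lay close together and above both at 0 h. MPK11 rose 3.09-fold in mean RPKM, the largest ratio among the 10 genes, from 1.33 ± 0.198 to 4.11 ± 0.0192 RPKM, or by 1.14 ± 0.16 on the log2 scale (limma adjusted p = 0.0096). Without any 1 of the 4 libraries it was still called, with a log2 fold change of 1.05 to 1.22. The 0 h mean of MPK11 was above the limit of 1 RPKM for testing, so it did not enter the test through the later group alone. The share of multi-mapped reads was 0 for MPK4 and for MPK11, and the longest stretch their transcripts shared was 31 bases, printed to show how short it is.
MPK4 and MPK11: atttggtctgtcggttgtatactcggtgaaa
The ratio of MPK4 to MPK11 RPKM was 27.3 and 34.3 at 0 h and 8.82 and 12.8 at 0.5 h, lower in both later libraries. The change of the log2 ratio of RPKM + 1 was -1.03, with an exact two-sided permutation p of 0.33, the smallest that 2 against 2 libraries can give. The size of this change depends on the value added to RPKM, with -1.4556 for 0.1 and -0.4246 for 5, and the log2 fold change of MPK11 was 1.5662 and 0.5258, called in both.

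MKK4 and MKK5, which act together upstream of MPK3 and MPK6, both had higher values at 0.5 h, and MKK4 was called. MKK4 had 8.59 and 10.3 RPKM at 0 h and 22.4 and 29.8 RPKM at 0.5 h. Every later value was more than the earlier ones, and the mean rose 2.76-fold from 9.43 ± 1.19 to 26.1 ± 5.24 RPKM (n = 2 each). With a log2 fold change of 1.37 ± 0.17 (limma adjusted p = 0.0072), MKK4 had the smallest p of the 10 genes. Its log2 fold change was 1.17 to 1.56 when any 1 library was left out, and it was called each time. MKK5 had 17.0 and 20.3 RPKM at 0 h and 25.1 and 31.5 RPKM at 0.5 h. The groups did not overlap, and the log2 fold change of 0.57 ± 0.16 did not pass (limma adjusted p = 0.070). Without 0.5 h replicate 1 MKK5 was called (0.73, limma adjusted p = 0.047).

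The ratio of MKK4 to MKK5 RPKM was 0.505 and 0.506 in the 0 h libraries and 0.890 and 0.945 in the 0.5 h libraries. At 0 h MKK4 was thus the lower gene of the pair in both libraries, and at 0.5 h the ranges of the pair overlapped. The log2 ratio changed by 0.79, also with the smallest possible exact permutation p of 0.33. The longest stretch shared by their transcripts was 40 bases, shown because it is the most that a read of either could match in the other without a mismatch.
MKK4 and MKK5: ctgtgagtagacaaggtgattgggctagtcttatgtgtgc
Their shares of multi-mapped reads were 0.000757 and 0.000771. MKK5 overlaps 4CL5 (AT3G21230), a 4-coumarate:CoA ligase gene on the opposite strand with 3.08 ± 0.916 and 4.03 ± 0.915 RPKM. MKK4 overlaps AT1G51670 on the same strand, which had 0 to 8 reads in each library.

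MPK3, a MAP kinase induced in immunity, was the most abundant of the 10 transcripts per length, with 142 and 148 RPKM at 0 h and 195 and 204 RPKM at 0.5 h. Both later libraries were higher, and the log2 fold change of 0.45 ± 0.14 did not pass (limma adjusted p = 0.087). MPK6, its partner in the same branch with wide roles in development as well as stress, had 58.1 and 60.7 RPKM at 0 h and 43.1 and 42.4 RPKM at 0.5 h. It was the only 1 of the 10 genes with both later libraries below both earlier ones, and its log2 fold change was -0.46 ± 0.13 (limma adjusted p = 0.067). Neither gene was called under any of the 16 other settings, with adjusted p from 0.051 to 0.29 for MPK3 and from 0.050 to 0.21 for MPK6.

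Since MPK3 and MPK6 had changes of opposite sign, their ratio moved more than either gene. MPK3 to MPK6 was 2.45 and 2.44 at 0 h and 4.52 and 4.82 at 0.5 h. The replicates lay close together at each time and the times did not overlap. The log2 ratio changed by 0.92 (exact permutation p = 0.33). Over the 4 pairs compared, the adjusted p of the exact permutation test was 0.444 for the 3 pairs whose groups did not overlap and 1 for MKK1 and MKK2. How often ratios of other gene pairs were apart was not computed. Of single tested genes, 27.1% were apart with 0.5 h higher and 32.6% with 0.5 h lower. The summed RPKM of MPK3 and MPK6 was 200.3 and 209 at 0 h and 238 and 247 at 0.5 h. Of the summed RPKM of the 4 MAP kinases, MPK3 made up 58.9% at 0 h and 68.7% at 0.5 h, MPK6 24.1% and 14.7%, MPK4 16.4% and 15.2%, and MPK11 0.540% and 1.42% (means of 2 libraries).

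**Figure D2:**
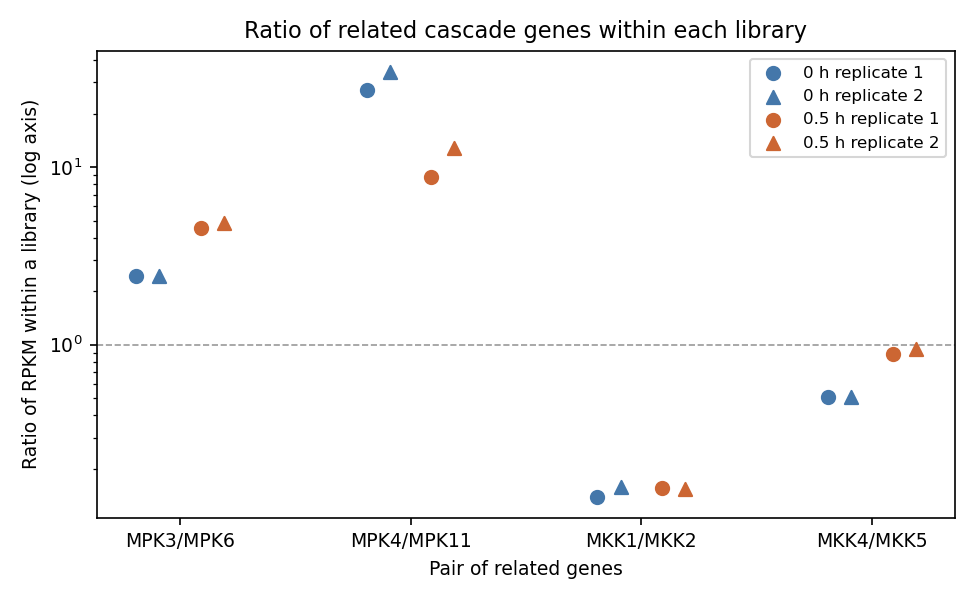
Ratio of the RPKM of related cascade genes within each library, on a log axis with a dashed line at 1 (blue, 0 h; orange, 0.5 h; circle, replicate 1; triangle, replicate 2). MPK3/MPK6 and MKK4/MKK5 are higher at 0.5 h, MPK4/MPK11 is lower, and MKK1/MKK2 overlaps between the times.

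MKK9, a MAP kinase kinase that can activate MPK3 and MPK6 and is linked to ethylene and camalexin synthesis, had 43.0 and 33.6 RPKM at 0 h and 60.2 and 79.4 RPKM at 0.5 h. Both later libraries were above both earlier ones, with wide gaps between replicates. The mean rose 1.82-fold from 38.3 ± 6.67 to 69.8 ± 13.6 RPKM, or by 0.85 ± 0.19 on the log2 scale (limma adjusted p = 0.036). The call ended without 0 h replicate 1 (1.02, limma adjusted p = 0.055), without 0 h replicate 2 (0.67, 0.14) and without 0.5 h replicate 2 (0.65, 0.14). MKK9 was the most abundant MAP kinase kinase of the 5 by mean RPKM at both times.

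**Figure D3:**
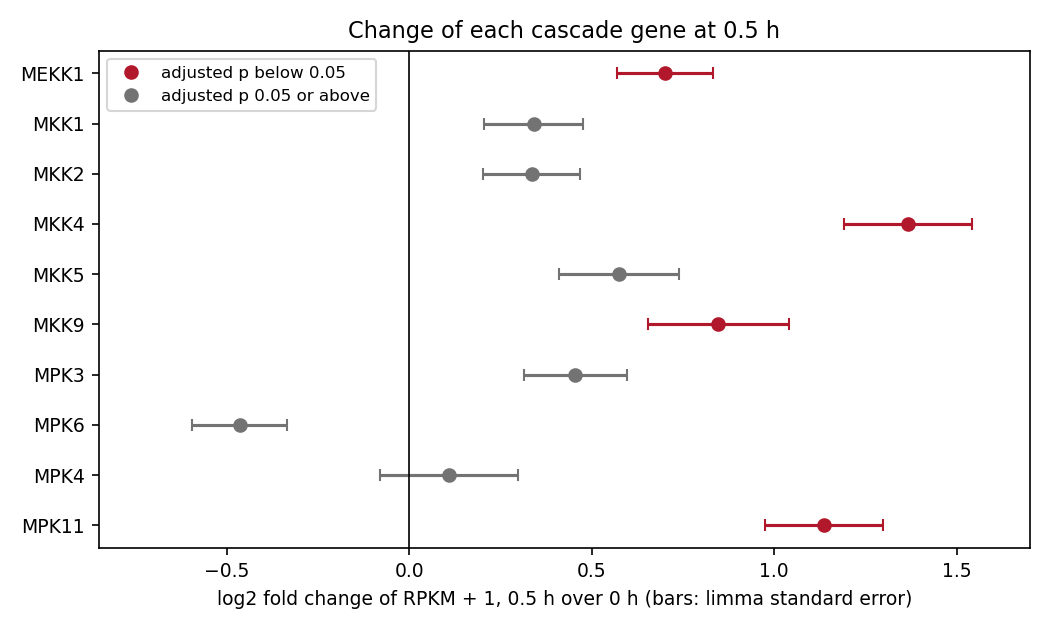
Log2 fold change of RPKM + 1 at 0.5 h over 0 h for each cascade gene (point) with its limma standard error (bar), red where the adjusted p was below 0.05. MKK4, MPK11, MKK9 and MEKK1 are red, and MPK6 lies below 0.

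By mean RPKM at 0 h, the order was MPK3, MPK6, MPK4, MKK9, MKK2, MEKK1, MKK5, MKK4, MKK1 and MPK11. The ranges of MPK4 and MKK9 overlapped, as did those of MEKK1 and MKK5. At 0.5 h the order was MPK3, MKK9, MPK4, MPK6, MKK2, MEKK1, MKK5, MKK4, MKK1 and MPK11, with overlapping ranges for MPK4 and MPK6 and for MKK5 and MKK4. The 0.5 h range of MPK4, 36.4 to 52.4 RPKM, also enclosed that of MKK2, 38.4 to 41.4 RPKM, so the places of these were not separated. By mean RPKM alone, MKK9 moved from the 4th to the 2nd place, and MPK6 from the 2nd to the 4th. Levels compared between genes also rest on the deposited gene lengths. Those furthest from the longest TAIR10.1 transcript were of MPK4 (1454 against 2843 bases) and MKK5 (1595 against 2406). The 5 MAP kinase kinases summed to 106 and 99.1 RPKM at 0 h and 156 and 185 RPKM at 0.5 h, and the 4 MAP kinases to 242 and 251 RPKM and to 279 and 303 RPKM.

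The 250 bases before the annotated start of the 4 genes called higher are shown because these genes differ in which of the short promoter motifs searched they hold. Coordinates are of TAIR10.1, and the sequences run 5′ to 3′ on the strand of the gene, with matches in capitals. Each motif was searched on both strands. The W-box, bound by WRKY factors, was searched as TTGACC and also as TTGACT. The element bound by CAMTA factors was searched as CGCGTT. The GCC box of ethylene-response factors was searched as GCCGCC. The G-box of bZIP and bHLH factors was searched as CACGTG. Matches of different motifs did not overlap in the windows of the 10 genes.
MEKK1, chr4:5407321-5407570, minus strand: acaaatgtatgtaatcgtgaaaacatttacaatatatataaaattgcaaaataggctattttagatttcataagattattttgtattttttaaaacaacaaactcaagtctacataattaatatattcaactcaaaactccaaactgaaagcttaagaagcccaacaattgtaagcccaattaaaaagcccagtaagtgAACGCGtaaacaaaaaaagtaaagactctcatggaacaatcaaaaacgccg
MKK4, chr1:19154073-19154322, plus strand: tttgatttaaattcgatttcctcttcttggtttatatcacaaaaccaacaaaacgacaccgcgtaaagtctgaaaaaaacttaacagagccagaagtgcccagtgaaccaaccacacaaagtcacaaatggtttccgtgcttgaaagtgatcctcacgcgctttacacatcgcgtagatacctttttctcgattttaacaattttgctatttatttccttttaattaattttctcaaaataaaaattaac
MKK9, chr1:27640644-27640893, minus strand: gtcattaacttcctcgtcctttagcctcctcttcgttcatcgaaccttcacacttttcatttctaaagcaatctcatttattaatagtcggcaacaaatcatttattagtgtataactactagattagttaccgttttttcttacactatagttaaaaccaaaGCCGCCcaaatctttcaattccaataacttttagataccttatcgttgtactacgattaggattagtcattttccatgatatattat
MPK11, chr1:201853-202102, plus strand: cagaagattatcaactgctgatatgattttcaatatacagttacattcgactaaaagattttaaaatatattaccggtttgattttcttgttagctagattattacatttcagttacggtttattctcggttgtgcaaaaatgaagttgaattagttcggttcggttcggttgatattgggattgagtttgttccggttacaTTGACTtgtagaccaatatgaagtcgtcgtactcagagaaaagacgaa
MEKK1 held 1 CAMTA-type match that began 51 bases before the start, MKK9 held 1 GCC box match 87 bases before it and MPK11 held 1 W-box match 48 bases before it. None of these exact letters was found in the window of MKK4, and other forms of the elements were not searched. Among all 10 genes, W-box letters were found in 4 (MPK4, MPK6, MPK11 and MKK2), CAMTA-type letters in 2 (MPK4 and MEKK1), GCC box letters in 1 and G-box letters in 0. Of 27443 protein-coding promoters of the same length, 28.4% held W-box letters, 2.59% CAMTA-type, 1.87% GCC box and 6.49% G-box letters. These matches describe the windows only.

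The other genes of the pathway were taken from 7 lists with 80 loci, of which 67 reached the limit for testing. Shares over all tested genes, 6.71% called higher and 5.11% lower, are the background here and for each list below. Of the 67, 12 were called higher and 4 lower, with a median log2 fold change of 0.07. Most of these calls ended when 1 library was left out: 2, 3, 10 and 2 of the 16 were still called without 0 h replicate 1, 0 h replicate 2, 0.5 h replicate 1 and 0.5 h replicate 2, respectively, and 0 of them in all 4 cases.

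Among the 16 other MAP kinases 14 were tested, 1 was called higher and 3 lower (median -0.15). MPK17 rose by 0.92 ± 0.16 on the log2 scale, from 96.1 ± 4.74 to 183 ± 27.1 RPKM (limma adjusted p = 0.017). MPK1, MPK16 and MPK14 fell by 0.86 ± 0.16, 0.72 ± 0.14 and 0.64 ± 0.15 on the log2 scale. With 1 library left out, the limma adjusted p ran from 0.040 to 0.066 for MPK17, from 0.012 to 0.095 for MPK1, from 0.023 to 0.11 for MPK16 and from 0.077 to 0.20 for MPK14. MPK7, the most abundant of those not called, had a log2 fold change of -0.38 ± 0.15 (limma adjusted p = 0.14). Of the 5 other MAP kinase kinases MKK3 alone was tested, and it had 6.61 ± 0.142 and 6.25 ± 1.01 RPKM. MKK6, a kinase of cell division, stayed under the limit for testing, with 0.212 and 0.190 RPKM at 0 h and 0.968 and 0.970 RPKM at 0.5 h.

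Of 17 other MEKK-type MAP kinase kinase kinases 10 were tested, and 2 were called higher and 0 lower (median 0.30). MAPKKK5, which links pattern receptors to MKK4 and MKK5, went up from 11.7 ± 0.0861 to 19.6 ± 1.5 RPKM (0.70 ± 0.13 on the log2 scale, limma adjusted p = 0.020). MAPKKK14 rose from 52.8 ± 5.96 to 90.2 ± 19.3 RPKM (0.75 ± 0.19). With 1 library left out, the limma adjusted p was 0.027 to 0.094 for MAPKKK5 and 0.027 to 0.18 for MAPKKK14. MAPKKK13 had 44.1 ± 2.43 and 48.0 ± 7.08 RPKM and was not called.

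The 10 MAP kinase phosphatases, which remove the activating phosphates, included 2 called higher and 0 lower (median -0.25). AP2C1, a phosphatase of MPK4 and MPK6, rose by 0.92 ± 0.17 on the log2 scale, from 18.1 ± 1.74 to 35.3 ± 6.96 RPKM (limma adjusted p = 0.021). AT1G07160, a protein phosphatase 2C family gene, rose from 3.68 ± 0.0889 to 5.92 ± 0.00899 RPKM. The tyrosine phosphatase gene PTP1 had 38.5 ± 2.06 and 31.7 ± 0.987 RPKM and was not called. Of 8 upstream kinases and scaffolds 1 was called, AT3G09830, a protein kinase superfamily gene, which rose from 15.9 ± 1.43 to 26.1 ± 1.38 RPKM. Without 1 library, the limma adjusted p was 0.014 to 0.097 for AP2C1, 0.078 to 0.18 for AT1G07160 and 0.039 to 0.12 for AT3G09830. The scaffold gene RACK1A had 193 ± 9.69 and 167 ± 2.98 RPKM and was not called.

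Of 17 genes for substrates of these kinases 3 were called higher and 0 lower (median 0.10). ERF6, an ethylene-response factor phosphorylated by MPK3 and MPK6, rose by 1.02 ± 0.16 on the log2 scale, from 50.9 ± 1.53 to 105 ± 17.2 RPKM (limma adjusted p = 0.013). WRKY33, a regulator of camalexin synthesis, rose from 105 ± 5.75 to 175 ± 2.80 RPKM (0.74 ± 0.14), and AT2G33550, a homeodomain-like superfamily gene, from 14.4 ± 2.77 to 25.9 ± 0.551 RPKM. ERF104 had 197 ± 5.98 and 194 ± 13.4 RPKM. Of 7 genes used as readouts of the cascade 3 rose and 1 fell (median 0.27). NHL10, PHI-1 and CYP81F2 rose by 0.99 ± 0.24, 0.98 ± 0.21 and 0.80 ± 0.15, and the receptor kinase gene FRK1 fell by 0.79 ± 0.19 on the log2 scale. Over the 4 left-out libraries, the limma adjusted p was 0.013 to 0.054 for ERF6, 0.051 to 0.087 for WRKY33, 0.032 to 0.11 for AT2G33550 and 0.052 to 0.096 for CYP81F2. It was 0.042 to 0.16 for NHL10, 0.030 to 0.13 for PHI-1 and 0.020 to 0.16 for FRK1. WRKY29, the most abundant of those not called, had 96.7 ± 3.57 and 110.2 ± 16.1 RPKM. Among these, MAPKKK14, FRK1, MPK14, NHL10 and AT1G07160 also lost their calls, or their place in the test, under settings that kept all libraries, beyond the lack of a minimum at which all 16 did.

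**Figure D4:**
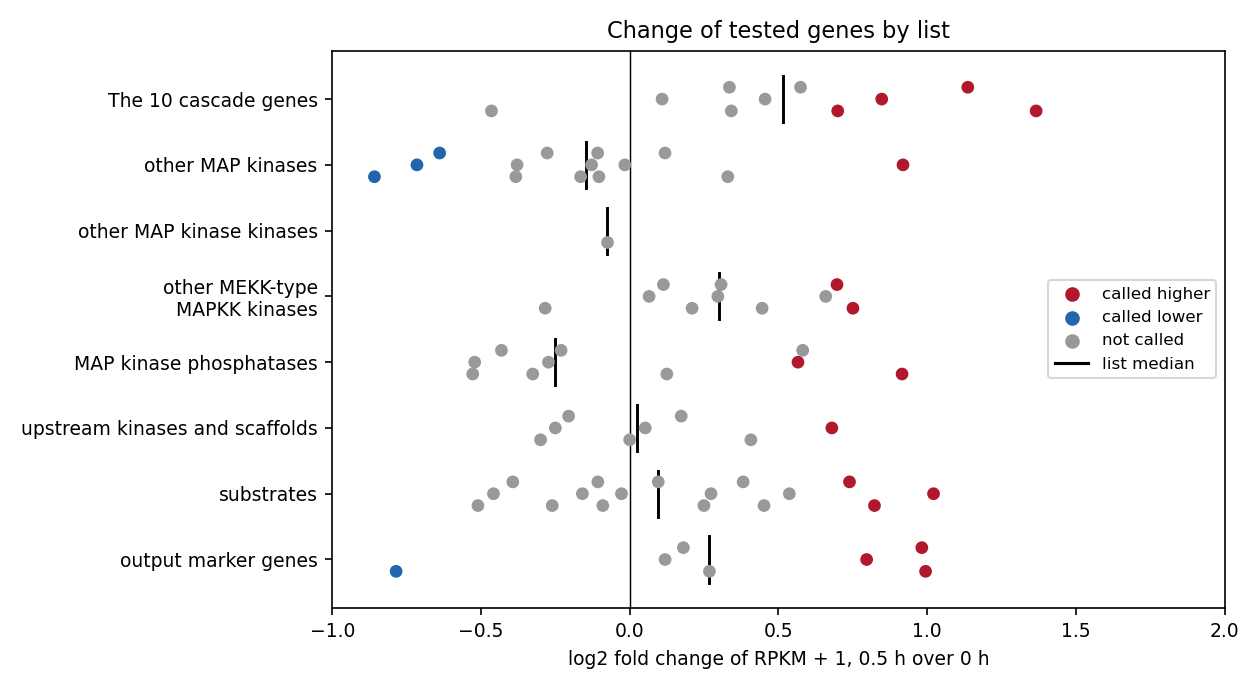
Log2 fold change of RPKM + 1 at 0.5 h over 0 h for each tested gene of the cascade and of the 7 other lists (red, called higher; blue, called lower; grey, not called), with a black line at the list median. The median of the 10 cascade genes is 0.51, and list medians of the others lie from -0.25 for the phosphatases to 0.30 for the MEKK-type kinases. The cascade genes and the lists were chosen with earlier results of these data known.

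The patterns most like that of MKK4 over the 4 libraries were those of AT3G49720, FH4 (AT1G24150) and KCS3 (AT1G07720). Likeness was the Euclidean distance between log2 values centred on each gene's mean, and it was 0.0609, 0.0682 and 0.0801 among the 15507 genes searched, whose multi-mapped fraction did not exceed 0.05. AT3G49720, coding for an uncharacterized protein, had 28.2 and 33.8 RPKM at 0 h and 67.8 and 89.3 RPKM at 0.5 h. FH4, coding for formin homologue 4, had 6.84 and 7.95 RPKM at 0 h and 18.7 and 23.5 RPKM at 0.5 h. KCS3, coding for a 3-ketoacyl-CoA synthase, had 8.57 and 10.2 RPKM at 0 h and 21.6 and 27.7 RPKM at 0.5 h. As in MKK4, replicate 2 was the higher library at each time in all 3, which follows from how they were chosen. The 4 libraries are few for such a likeness.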

How the data were processed

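RNA of whole seedlings was sequenced from TruSeq libraries, per the labels' protocols. The authors deposited RPKM values scaled with TMM, as the file name says. TAIR10 and SAMtools are named per the submitters' processing notes, and no aligner or counter is named there. The deposited table also gives each gene's highest fraction of multi-mapped reads, and, in another column, its length in kilobases.

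Value times length lay on steps of 1 read with 0.5 read added. Recovered reads were whole, within 0.05 read, for 99.992 to 100.0% of genes without multi-mapped reads and 47.5 to 51.7% of those with them. Reads are not independent molecules, so no counting intervals were computed.

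The test, two-sided with group as its sole term, was limma 3.58.1 in R 4.3.3 on log2(RPKM + 1), with a variance trend, for genes averaging 1 RPKM or more, Benjamini-Hochberg adjusted over 18039 genes, with a threshold of 0.05. Residual degrees of freedom were 2 and prior ones 4.82. On simulated counts the share of false calls made by the procedure was above the threshold. The false calls were mostly of short genes with few reads. A minimum mean of 100 reads, an alternative chosen after this was seen, brought it below the threshold. Paralogue ratios within libraries were compared by exact permutation. Members and lists were chosen with earlier results of these data known. Of the 80 list loci 73 matched the intended symbol in the RefSeq table, and the others are named by that table or by locus. Named were all members, up to 5 called genes of each list by p and the most abundant one not called, and the 3 genes nearest in pattern to the member with the smallest p. Promoter windows, coding windows and shared stretches were read from the RefSeq TAIR10.1 genome by its own annotation. The windows, and coding-base identity in place of protein identity, were chosen after the data were seen. The deposited table gives no coordinates. Other steps ran in Python 3.11.15 with scipy 1.17.1, numpy 2.4.6, pandas 2.3.3 and matplotlib 3.10.9.

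Alternatives were other pseudocounts, minima, scalings and variance models, a replicate block, limma-voom on recovered reads, leaving out genes with a multi-mapped fraction above 0.05, and leaving out each library.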

Additional observations from a re-analysis of the deposited data

How the results depend on the processing

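The count of cascade genes called higher was 4, and the same 4 genes were called with a pseudocount of 0.1 or 5, scaling by quantiles or median of ratios, robust limma, limma with no trend, limma-voom on recovered reads, and without genes whose share of multi-mapped reads was above 0.05. With a minimum mean of 100 reads, chosen after seeing the data, the same 4 cascade genes were called, 1279 of 15358 tested genes were higher and 1075 lower, and 15 of the 16 list genes stayed called, with MPK14 no longer tested. With no minimum on the mean RPKM 0 cascade genes, 0 and 2 of all tested genes (higher and lower) and 0 and 0 pathway list genes were called; the cause was not tested. With a minimum of 5 RPKM, MPK11 was no longer tested. Without 1 library, 2 to 4 cascade genes were called higher, 506 to 1158 of all tested genes higher and 233 to 824 lower, and 2 to 8 list genes higher and 0 to 3 lower. Such fits hold 1 sample in 1 group, which is assumed to vary like the other group.

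With the replicate number as a block, 4 cascade genes were called higher, with MKK5 (adjusted p = 0.048) in place of MKK9 (0.054), and 2 list genes lower. Over all tested genes, libraries of the same number did not deviate together (correlation -0.08 over 18039 genes). With 2 libraries per group, this correlation cannot show whether libraries of the same number were handled together.

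Among the cascade genes and the named list genes, for which each setting was run, the log2 fold change changed sign, with no call on either side, for 4 genes. Without 1 library, MPK4 ranged from -0.1494 to 0.3669, MKK3 from -0.2184 to 0.0667, MAPKKK13 from -0.0347 to 0.261 and ERF104 from -0.0979 to 0.0426. ERF104 also changed sign with median-of-ratios scaling (0.0015) and quantile scaling (0.0488). The change of the MKK1/MKK2 log2 ratio, 0.0063, was -0.0919 with a pseudocount of 5, -0.1118 with quantile scaling, and -0.0769 to 0.0896 without 1 library. The other pair ratios kept their sign in all settings run, and the change of MPK4/MPK11 ranged from -1.4556 with a pseudocount of 0.1 to -0.4246 with 5. Of the 10 cascade genes, MPK11 had the fewest reads, 54 to 191.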
